A study of Mus musculus with 2 samples.

Results

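The 7 genes Lpl, Gpihbp1, Cd36, Fabp4, Fabp5, Rbp7 and Cd300lg, grouped as genes of fatty acid uptake by capillary endothelium, were followed across the tumour endothelial cells (ECs) of 2 droplet-based single-cell RNA-seq libraries. They were chosen by name, and all 7 were among the 17139 genes of both libraries. The first library came from a Lewis lung carcinoma (LLC) tumour given an i.t. injection of PBS and the other from an LLC tumour injected with cGAMP, the cyclic dinucleotide that binds and activates STING. Both tumours were subcutaneous implants in adult male mice of the c57bl/6 strain, the ECs were sorted as live CD31+ cells that lacked CD45, the surface marker of leucocytes, and the methods place the sorting a day after the injection, where a legend of the study gives a shorter time. Each condition was 1 library of 1 mouse, so that no difference below has a replicate check, no test could be made, and every interval covers counting error only.

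Capillaries of fat, heart and muscle are the vessels that take up most fatty acids from the blood. Lipoprotein lipase, the product of Lpl, is made mainly by adipocytes and muscle cells and frees fatty acids from the triglycerides of lipoproteins. GPIHBP1 is the anchor on capillary ECs that carries the lipase to the vessel lumen, CD36 is a scavenger receptor that takes up fatty acids at the cell surface, and FABP4 and FABP5 carry them through the cytosol. RBP7 is a retinol-binding protein of the same protein family, and CD300LG is an immunoglobulin-like receptor of the endothelial surface. In ECs of fat and heart, PPARG, MEOX2 and TCF15 are known regulators of several of these genes.

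On GRCm38 (mm10), with GENCODE vM21 genes, Fabp5 lies on chromosome 3 from 10012548 to 10016607 on the plus strand, and Fabp4 on the same chromosome from 10204088 to 10208576 on the minus strand. Rbp7 lies on chromosome 4 from 149449687 to 149454978 (minus strand), Cd36 on chromosome 5 from 17781690 to 17888801 (minus strand) and Lpl on chromosome 8 from 68880491 to 68907448 (plus strand). Cd300lg lies on chromosome 11 from 102041509 to 102055620 and Gpihbp1 on chromosome 15 from 75596628 to 75599481, both on the plus strand. None of the 7 overlaps another annotated gene. The transcript of Fabp5 has similar transcripts in 5 other genes, with 93.6% to 98.3% identity over 336 to 409 bases, so its counts are uncertain where reads were shared with copies. None of those 5 genes was among the genes of the files.

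Of the 7 genes Rbp7 and Cd36 had a match in the RefSeq promoter table (GRCm38.p6). Both were highest in the same small endothelial cluster, where their ratios between the conditions pointed in opposite directions, and the regions around their start sites are shown for that reason. Each window runs from 250 bases before to 50 bases after the start, is written 5′ to 3′ on the gene's minus strand, and has in capitals the matches found on either strand to 7 motifs: the nuclear receptor half-site AGGTCA, the direct repeat of this half-site with 1 base between its arms (DR1), the FOX motif GTAAACA, the ETS motif CAGGAAG, the boxes CCAAT and TATAAA, and the GC box GGGCGG. A DR1 match is therefore also a match to the half-site.
Rbp7, chr4:149454919-149455218: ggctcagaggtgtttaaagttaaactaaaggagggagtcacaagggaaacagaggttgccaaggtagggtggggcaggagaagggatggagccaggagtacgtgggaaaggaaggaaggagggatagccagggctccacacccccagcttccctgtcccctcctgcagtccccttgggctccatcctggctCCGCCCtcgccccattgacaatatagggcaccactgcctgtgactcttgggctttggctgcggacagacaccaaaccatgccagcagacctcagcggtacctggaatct
Cd36, chr5:17835847-17836146: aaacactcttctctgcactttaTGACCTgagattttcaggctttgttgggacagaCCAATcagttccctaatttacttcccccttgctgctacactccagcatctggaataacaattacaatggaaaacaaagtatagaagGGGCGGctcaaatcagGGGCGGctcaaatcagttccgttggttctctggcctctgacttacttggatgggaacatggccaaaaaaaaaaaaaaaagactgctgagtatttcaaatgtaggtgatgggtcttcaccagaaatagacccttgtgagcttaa
The capitals in the Rbp7 window are 1 GC box on the opposite strand. Those in the Cd36 window are a half-site on the opposite strand, a CCAAT box and 2 GC boxes that lie in a tandem repeat of 16 bases. Of 32544 promoter windows of the same length, 35.9% held a GC box, 37.4% CCAAT, 16.2% the half-site, 13.6% TATAAA, 13.3% the ETS motif, 3.66% the FOX motif and 0.040% the direct repeat. Of the 3 annotated transcripts of Rbp7, 2 started inside its window, and of the 6 of Cd36 none did, the nearest starting 130 bases away. The libraries hold 3′ tags, which do not show the start site used.

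The PBS library held 2517 ECs with 92081146 unique molecular identifiers (UMIs, each standing for 1 captured transcript), and the cGAMP library 1340 ECs with 63366746 UMIs. The median per cell was 29780 and 41178 UMIs, and the median mitochondrial share was 4.49% and 2.87%. The libraries shared 1 cell barcode. All 9 endothelial markers examined, among them Pecam1 and Cdh5, were present in both. Levels are given in CPM, a gene's UMIs per 1000000 UMIs summed over the cells of a library or cluster, with exact Poisson 95% intervals. The cells fell into 8 clusters, made without the 7 genes. By markers, 2 clusters were tip-like (leading genes Gal and Chga, and Bnip3 and Ankrd1), 1 arterial (Gja5, Gja4), 1 stalk-like or venous (Ackr1, Selp) and 1 proliferative (Ube2c, Cenpf). The other 3 had no name, and are called by their leading genes Ung and Hells, Slc6a6 and Clic5, and Igfbp5 and Ctsh. In the cells led by Igfbp5 and Ctsh, 12 of 13 stalk-like or venous markers were raised, against 10 in the cluster so named. They stayed without that name because 0 of these markers were among their 10 leading genes.

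No cluster could be named capillary. In the cluster led by Slc6a6 and Clic5, 7 of 13 capillary markers and 7 of 13 arterial markers were raised, and each list had 2 genes among the 10 leading ones. Its cells were 65 PBS-treated ECs, 2.58% of the library (exact 95% interval 1.999 to 3.28), and 53 cGAMP-treated ECs, 3.96% (2.98 to 5.14). They had the lowest median UMI count of the 8 clusters, 15383 and 22769 UMIs. This small cluster held the highest level of 6 of the 7 genes in both libraries, the exception being Gpihbp1. Against all other cells of the same library, 5 of the 6 genes that reached 5 CPM in a whole library were at least 2-fold higher in both libraries, whereas 2.40% of 9509 genes were. Lpl, under 5 CPM in both whole libraries, was far higher there as well. Only this cluster, in which 6 of the 7 genes peaked, was compared with all genes in this way. The count of 5 is therefore a description only. The cluster stood on its own at resolutions of 0.5 and 0.8. At 0.3, with other variable genes or without integration, at least 97.5% of its 118 cells lay in a larger arterial cluster of 501 to 855 cells, in which 3 to 5 of the 7 genes were at least 2-fold higher than elsewhere. The share of all genes past 2-fold in those larger clusters was not counted.

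**Figure D1:**
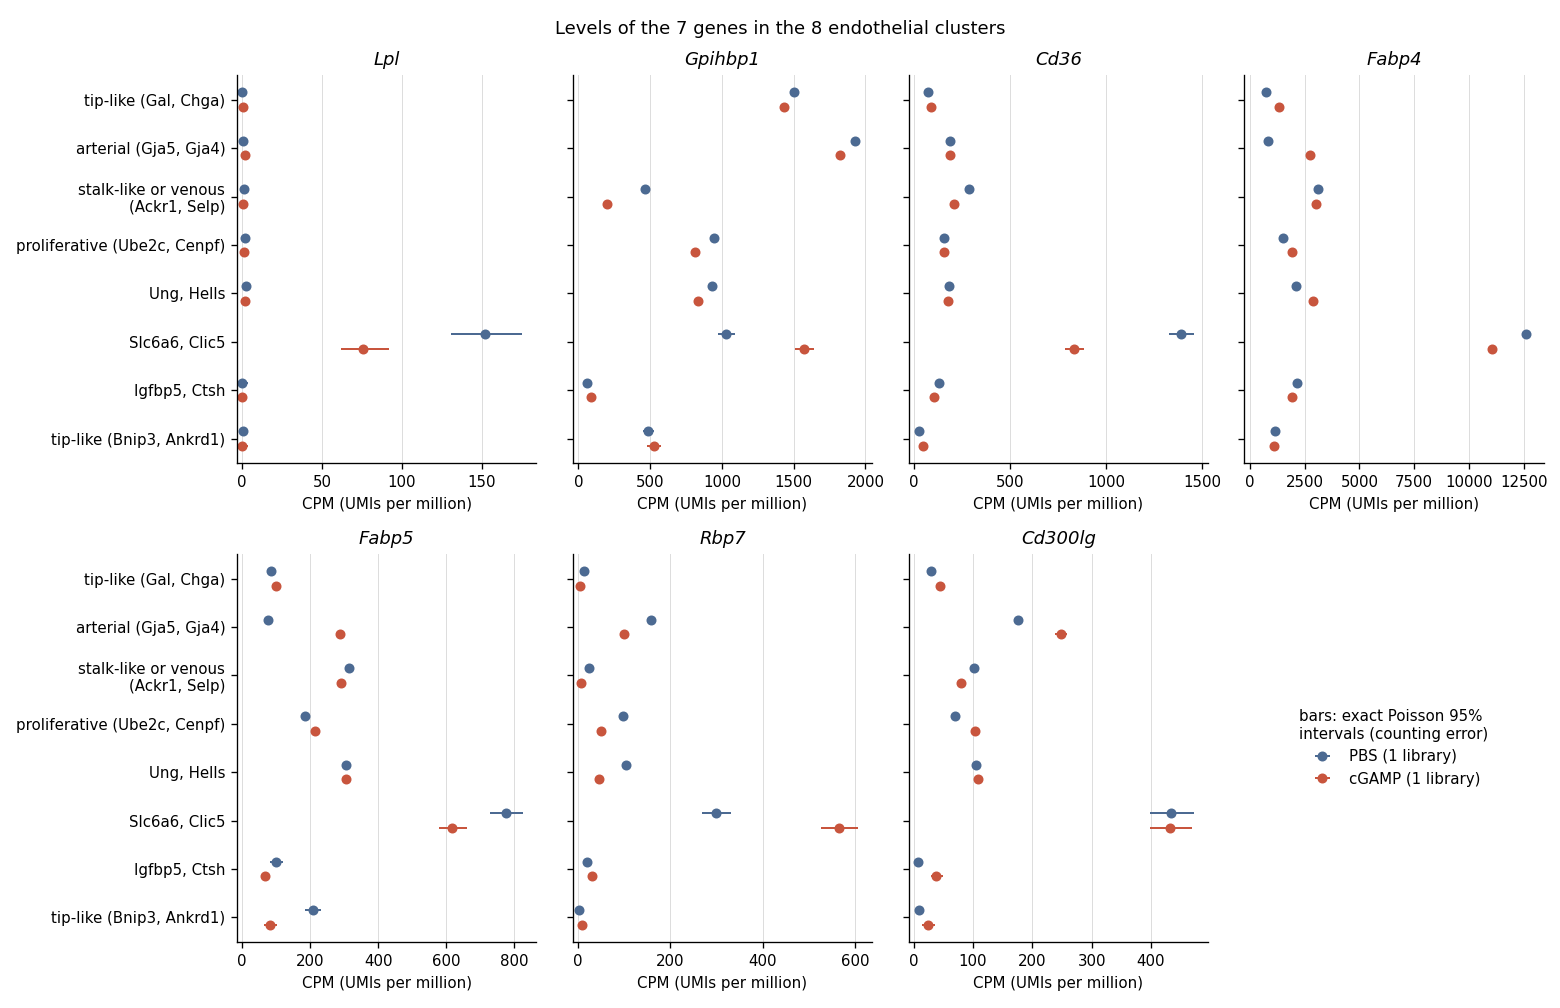
Level of each gene in CPM (horizontal axis, linear, a separate scale for each gene) in the 8 clusters, with the PBS library in blue and the cGAMP library in red and exact Poisson 95% intervals as bars. Lpl, Cd36, Fabp4, Fabp5, Rbp7 and Cd300lg peaked in the cluster led by Slc6a6 and Clic5, and Gpihbp1 in the arterial cluster.

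Lpl was concentrated in that cluster. In the cells led by Slc6a6 and Clic5 it was at 152 CPM (131 to 175) with PBS and 75.9 CPM (62.1 to 91.9) with cGAMP, against 1.19 and 1.15 CPM in all other cells, a 128-fold and a 66.3-fold difference. These 65 and 53 cells carried 63.3% of the 294 Lpl UMIs of the PBS library and 59.7% of the 176 of the cGAMP library. A UMI was found in 28 of the 65 and 30 of the 53 cells. The signal was uneven, with up to 39 and 11 UMIs in a single cell of the cluster, and no cell outside it had more than 9 (PBS) or 8 (cGAMP). Elsewhere the highest levels were 2.65 CPM in the PBS-treated and 2.13 CPM in the cGAMP-treated cells led by Ung and Hells. The cells led by Igfbp5 and Ctsh had 0 Lpl UMIs in both libraries, which allows at most 3.64 and 2.53 CPM.

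Because Lpl is a transcript of fat and muscle cells, markers of other cells were examined beside it. Of 9 adipocyte markers 4, Adipoq, Cfd, Plin4 and Retn, were among the genes of the files. In the cells led by Slc6a6 and Clic5 the 4 summed to 7.34 CPM (9 UMIs) with PBS and 2.89 CPM (4 UMIs, with 2 of the 4 genes at 0) with cGAMP, against 0.64 and 0.21 CPM in the other cells. They were found in 3 of the 65 and 2 of the 53 cells, and the cells without any held 158 of the 186 and 94 of the 105 Lpl UMIs of the cluster. The 6 muscle markers in the files summed to 8.98 and 7.23 CPM, against 2.01 and 1.61 CPM, and the cells without one held 157 and 88 of the Lpl UMIs. The 8 fibroblast or pericyte markers summed to 100 and 18.8 CPM, against 12.0 and 4.65 CPM, and here the cells without one held 50 and 60 of the Lpl UMIs. The 11 macrophage markers summed to 22.8 and 49.9 CPM, against 21.6 and 47.7 CPM. Lyz2, a leucocyte transcript that ECs should lack, was found in 1 of 57 and 6 of 52 cells of the cluster after thinning to 5000 UMIs per cell, where Lpl was found in 12 of 57 (21.1%, 11.4 to 33.9) and 12 of 52 (23.1%, 12.5 to 36.8). With 9 and 4 UMIs, the adipocyte markers were too sparse to show that a cell without one lacked adipocyte RNA. The part of the adipocyte, fibroblast, pericyte, muscle and macrophage RNA in the Lpl level was not tested.

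Gpihbp1, the partner of the lipase, had a different distribution. It was highest in the arterial cluster, at 1929 CPM (1907 to 1952) with PBS and 1825 CPM (1796 to 1854) with cGAMP. The tip-like cells led by Gal and Chga followed in the PBS library, at 1502 CPM, and stood at 1430.2 CPM with cGAMP. The cells led by Slc6a6 and Clic5 had 1029.7 CPM with PBS, 0.85 of the level in the other cells, and 1573 CPM with cGAMP, 1.66 times it. The proliferative cells had 948 and 815 CPM and those led by Ung and Hells 933 and 833 CPM, neighbours in the order whose intervals overlapped. The tip-like cells led by Bnip3 and Ankrd1 had 487 and 526 CPM, and the stalk-like or venous cells 465 and 202 CPM. Lowest were the cells led by Igfbp5 and Ctsh, at 60.2 CPM (46.1 to 77.4) and 90.6 CPM (75.8 to 107), where 9 of 44 and 13 of 53 thinned cells had a UMI. Most Gpihbp1 UMIs were therefore in clusters with little Lpl, with 41.0% and 38.4% in the tip-like cells led by Gal and Chga alone.

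Cd36, the surface receptor, reached 1389 CPM (1324 to 1457) with PBS and 833 CPM (786 to 882) with cGAMP in the cells led by Slc6a6 and Clic5, 9.35-fold and 5.34-fold its level in the other cells. The stalk-like or venous cells came next, at 288 CPM (278 to 299) and 208 CPM (201 to 216). The arterial and proliferative clusters and those led by Ung and Hells and by Igfbp5 and Ctsh lay between 106 and 190.1 CPM in both libraries. The tip-like cells were lowest, with 74.4 and 89.7 CPM in the cluster led by Gal and Chga and 25.0 and 47.0 CPM in that led by Bnip3 and Ankrd1. A typical cell of the Slc6a6 and Clic5 cluster had a median of 11.7 Cd36 UMIs per 10000 with PBS and 7.63 with cGAMP, whereas the medians of the other clusters were at most 2.14 and 1.57.

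Of the cytosolic carriers, Fabp4 was at 12617 CPM (12419 to 12818) and 11045 CPM (10871 to 11222) in the cells led by Slc6a6 and Clic5, 9.12-fold and 4.91-fold the other cells. All 57 and 52 thinned cells of the cluster had a UMI. Between cells the level spread widely, from 12.2 UMIs per 10000 at the 10th percentile to 371 at the 90th with PBS, and from 15.2 to 255 with cGAMP. The median cell had 51.4 and 97.3 UMIs per 10000, higher with cGAMP, where the summed level was lower. The stalk-like or venous cells were at 3121 and 3007 CPM, and the tip-like cells led by Gal and Chga, the lowest in the PBS library, at 739 and 1329 CPM. Fabp5 was also highest in the cells led by Slc6a6 and Clic5, with 777 CPM (728 to 828) and 619 CPM (578 to 662). Further down the order differed. The cells led by Igfbp5 and Ctsh had 2174 and 1918 CPM of Fabp4 but 98.8 and 67.3 CPM of Fabp5. The stalk-like or venous cells had 313 and 289 CPM of Fabp5 and the cells led by Ung and Hells 306 CPM in both libraries, neighbours whose intervals overlapped in each.

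Rbp7, the retinol-binding relative, was at 299 CPM (269 to 331) with PBS and 566 CPM (527 to 607) with cGAMP in the cells led by Slc6a6 and Clic5, 4.36-fold and 17.2-fold the other cells. Next was the arterial cluster, at 158 and 99.7 CPM. The proliferative cells and those led by Ung and Hells had 97.0 and 105 CPM with PBS and 50.7 and 46.1 CPM with cGAMP. In the other 4 clusters Rbp7 stayed between 2.78 and 30.9 CPM. Cd300lg had nearly the same level in both libraries in the cells led by Slc6a6 and Clic5, 434 CPM (398 to 473) and 432 CPM (398 to 468). The arterial cluster came next here too, at 176 and 248 CPM, and the tip-like cells led by Bnip3 and Ankrd1 and the cells led by Igfbp5 and Ctsh were lowest, between 7.90 and 37.8 CPM.

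**Figure D2:**
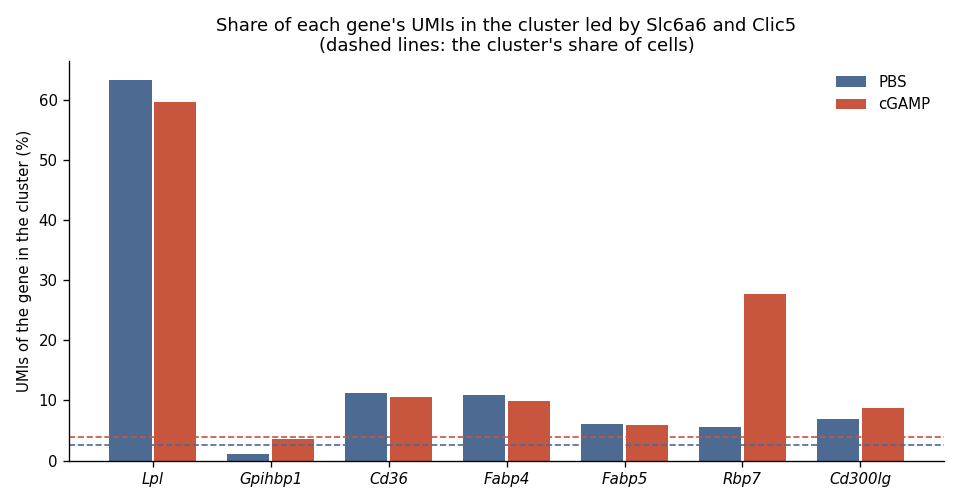
Percentage of each gene's UMIs that fell in the cluster led by Slc6a6 and Clic5 (vertical axis), with the PBS library in blue and the cGAMP library in red. The dashed lines mark the share of cells in that cluster, 2.58% and 3.96%, and Lpl stood at 63.3% and 59.7%, Rbp7 at 5.55% and 27.7%, and Gpihbp1 at 1.13% and 3.57%. The cells of this cluster had few UMIs, so the lines lie above its share of all UMIs. A bar under its line therefore need not be a lower level. Gpihbp1 lay under the line in both libraries, at 0.85 of the CPM of the other cells with PBS and 1.66 times it with cGAMP.

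The 7 genes thus differed in how far their UMIs were concentrated. The share in the cells led by Slc6a6 and Clic5 was 11.2% and 10.6% for Cd36, 10.95% and 9.88% for Fabp4, 6.10% and 5.94% for Fabp5 and 6.88% and 8.82% for Cd300lg. The number of Fabp4 UMIs per Gpihbp1 UMI ran from 0.42 in the arterial cluster of the PBS library to 36.1 in the cells led by Igfbp5 and Ctsh of the same library, so the 2 transcripts did not keep a constant ratio.

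Over 15 points, the clusters with at least 30 cells in each library taken separately, the Pearson r of log2(CPM + 1) was 0.85 for Cd36 and Fabp4, 0.84 for Fabp4 and Fabp5, 0.86 for Lpl and Fabp4, 0.79 for Cd36 and Rbp7 and 0.83 for Cd36 and Cd300lg. It was -0.01 for Gpihbp1 and Fabp4 and 0.22 for Gpihbp1 and Cd36. The points share libraries and the cluster led by Slc6a6 and Clic5 weighs on all of them, so these values are descriptions only. Among single cells of 1 cluster and 1 library, in the 9 such sets of at least 150 cells, Fabp4 and Fabp5 had an r of log values between 0.59 and 0.88 (median 0.67), the highest median of the 21 pairs. That of Cd36 and Fabp4 ran from 0.30 to 0.69 and that of Gpihbp1 and Fabp4 from -0.40 to 0.24. Cells of a set share their library and differ in depth.

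**Figure D3:**
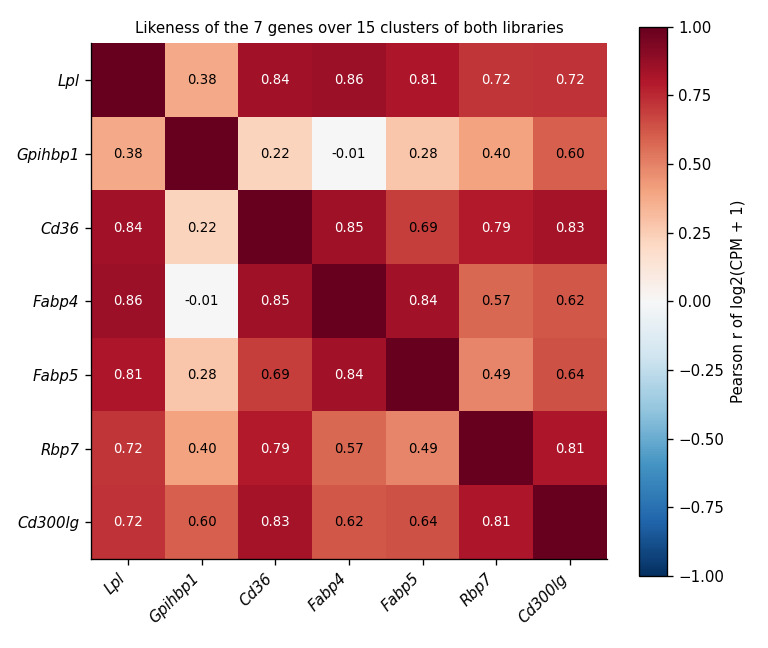
Pearson r of log2(CPM + 1) between each pair of the 7 genes over 15 clusters of the 2 libraries (red positive, blue negative, scale from -1 to 1). The row of Gpihbp1 is the palest, with r from -0.01 (Fabp4) to 0.60 (Cd300lg).

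Among 6039 other genes with at least 20 CPM, those with the most similar profile over the same 15 points were Fbxo22 (r = 0.94), Slc6a6 (0.93) and Rapgef3 (0.92) for Cd36, and Sgk1 (0.87), Ucp2 (0.86) and Mepce (0.85) for Fabp4. For Lpl they were Sgk1 (0.89), Slc6a6 (0.89) and Zfp830 (0.89), and for Fabp5 Pim3 (0.78), Mepce (0.75) and Eef2kmt (0.75). Gpihbp1 was most like Flt4 (0.94), the receptor of VEGF-C, Ccdc85b (0.93) and Mpzl1 (0.92). Rbp7 was most like Ybx1 (0.94), Dpm3 (0.89) and S100a1 (0.87), and Cd300lg like Smco4 (0.94), Dysf (0.92) and Cd38 (0.91). Slc6a6, the taurine transporter, led the cluster itself.

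Between the conditions, over all cells, 4 of the 7 genes were higher and 3 lower with cGAMP, and none of the 6 with at least 5 CPM differed 2-fold, where 3.52% of 9509 genes did. Their median log2 ratio (cGAMP/PBS) was 0.05, and that of the 9509 genes -0.08. Fabp4 differed most among the higher ones, with 1533 CPM (1525 to 1541) in PBS-treated and 2441 CPM (2429 to 2453) in cGAMP-treated ECs, a log2 ratio of 0.67 (exact interval 0.66 to 0.68). Fabp5 stood at 169 and 227 CPM, a log2 ratio of 0.43 (0.39 to 0.46), and Cd300lg at 83.9 and 107 CPM, 0.35 (0.30 to 0.40). Cd36 was nearly equal, with 165 and 171 CPM, 0.05 (0.01 to 0.08), and its sign changed to a ratio of -0.11 when the proportions of the clusters were held equal.

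Of the lower genes, Gpihbp1 had 1215 CPM (1208 to 1222) in PBS-treated and 962 CPM (955 to 970) in cGAMP-treated ECs, a log2 ratio of -0.34 (-0.35 to -0.32). Rbp7 had 71.6 CPM (69.9 to 73.3) and 44.6 CPM (43.0 to 46.3), a log2 ratio of -0.68 (-0.75 to -0.62). That ratio was -0.38 with the mean of per-cell CPM, and -0.40 and -0.32 after thinning to 5000 and 10000 UMIs per cell. Without the cells led by Slc6a6 and Clic5, an alternative chosen after seeing the data, that of Rbp7 was -1.05, past 2-fold. Without every cell that held a UMI of an adipocyte or macrophage marker it was -0.08 and that of Fabp5 -0.05, but this kept only 57.8% of the PBS library and 20.7% of the cGAMP library. Lpl, with 3.19 and 2.78 CPM, had a log2 ratio of -0.20 (-0.48 to 0.07), a difference not detectable at this depth.

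**Figure D4:**
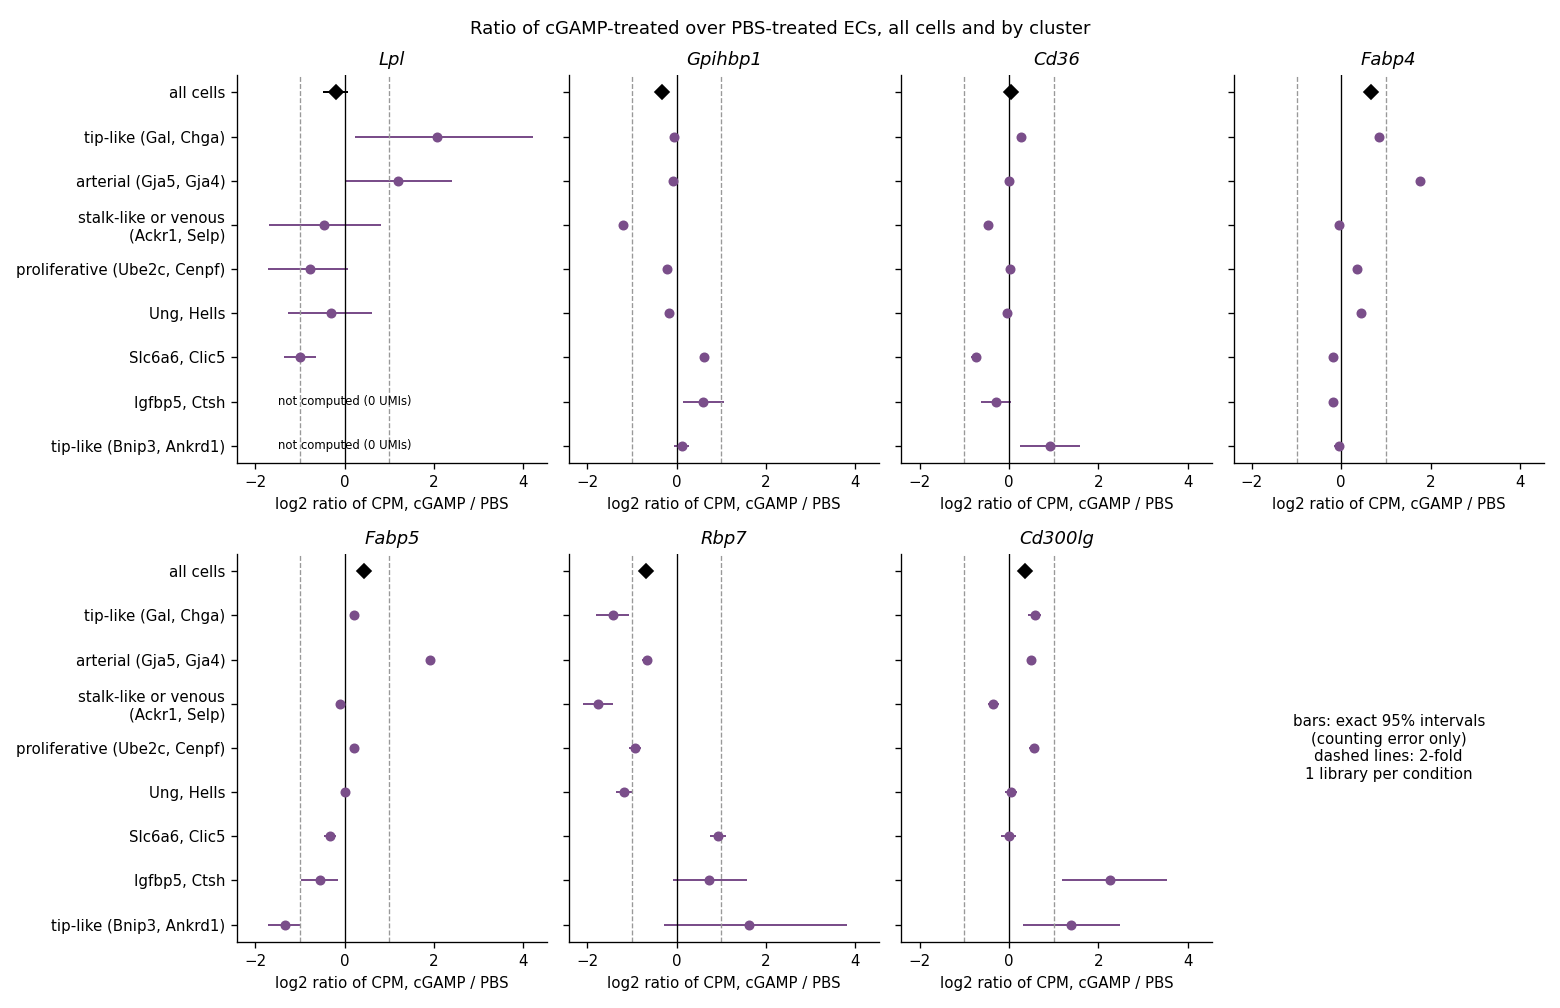
Log2 ratio of CPM, cGAMP over PBS (horizontal axis), of each gene over all cells (black diamonds) and in the 8 clusters (purple circles), with exact 95% counting intervals as bars and 2-fold differences as dashed lines. Fabp4 and Fabp5 lay beyond 2-fold in the arterial cluster, Gpihbp1 in the stalk-like or venous cluster, and Rbp7 changed side between clusters.

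The ratios differed between clusters, which themselves had other shares of the 2 libraries, with 15.7% of the PBS library and 25.3% of the cGAMP library stalk-like or venous. Within the arterial cluster (520 and 224 cells) 2 of 6 genes with at least 5 CPM were past 2-fold, with 5.28% of all genes. Fabp4 was at 812 CPM (797 to 827) with PBS and 2736 CPM (2701 to 2771) with cGAMP, 3.37-fold higher. The median arterial EC had 1.496 Fabp4 UMIs per 10000 with PBS and 15.9 with cGAMP. Fabp5 was at 76.1 CPM (71.6 to 80.7) and 287 CPM (276 to 299), 3.78-fold higher. Under 5 other clusterings the log2 ratio in the cluster with the largest part of these cells ran from 0.98 to 1.72 for Fabp4 and from 0.66 to 1.88 for Fabp5, against 1.75 and 1.92. That cluster held 99.1% and 81.0% of the arterial cells at resolutions of 0.3 and 0.8, but 55.2% and 54.8% with other variable genes and 49.3% without integration, where Fabp5 was at 0.66, and some of those clusters also took in the cells led by Slc6a6 and Clic5.

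In the stalk-like or venous cluster (395 and 339 cells) 2 of 6 genes were past 2-fold, with 6.48% of all genes. Gpihbp1 was at 465 CPM (452 to 478) with PBS and 202 CPM (195 to 210) with cGAMP, a log2 ratio of -1.20, and 60.9% (55.9 to 65.8) and 39.5% (34.2 to 44.9) of the thinned cells had a UMI. Rbp7 was at 24.9 CPM (21.9 to 28.2) and 7.37 CPM (6.06 to 8.88), a log2 ratio of -1.76. Both depend on how the cells were clustered. Without integration of the libraries, the cluster that held 72.9% of these cells had a log2 ratio of 0.59 for Gpihbp1, the opposite direction, and of -0.11 for Rbp7, and with all variable genes but the 7 in use the ratio of Gpihbp1 was -0.69. Fabp4 differed little here, with a log2 ratio of -0.05 (-0.07 to -0.03).

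In the tip-like cells led by Gal and Chga, 1 of 6 genes was past 2-fold, with 3.17% of all genes: Rbp7, at 12.0 CPM (10.8 to 13.3) with PBS and 4.46 CPM (3.49 to 5.60) with cGAMP. In the cells led by Ung and Hells it was again Rbp7 alone, at 105 and 46.1 CPM, with 4.17% of all genes. In the proliferative cells none of 6 was, with 3.22% of all genes, and the log2 ratio of Rbp7 was -0.94 (-1.07 to -0.80). In the cells led by Igfbp5 and Ctsh, 1 of 6 was past 2-fold, with 12.6% of all genes, namely Cd300lg with 8 and 55 UMIs. In the cells led by Slc6a6 and Clic5, where all 7 genes could be counted, none was past 2-fold, with 15.1% of all genes. There the log2 ratio was 0.92 (0.74 to 1.11) for Rbp7, 0.61 (0.51 to 0.71) for Gpihbp1, -0.74 (-0.85 to -0.63) for Cd36 and -0.999 (-1.36 to -0.65) for Lpl, which was just under 2-fold.

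The share of cells with a UMI was compared after each cell had been thinned to 5000 UMIs, which left 2447 PBS-treated and 1327 cGAMP-treated ECs. A Fabp4 UMI was found in 59.2% (57.2 to 61.2) of the former and 87.8% (85.9 to 89.5) of the latter. The share was higher with cGAMP in each of the 7 clusters in which it was not already 100%, with overlapping intervals in the cells led by Igfbp5 and Ctsh and by Bnip3 and Ankrd1, and in the stalk-like or venous cells, with nearly equal CPM, it was 72.4% and 94.96%. Fabp4 was thus spread over more cells of the cGAMP library. The 1% of cells with the most Fabp4 UMIs held 18.6% of them with PBS and 8.63% with cGAMP. Without thinning the shares were 81.8% and 97.99%.

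**Figure D5:**
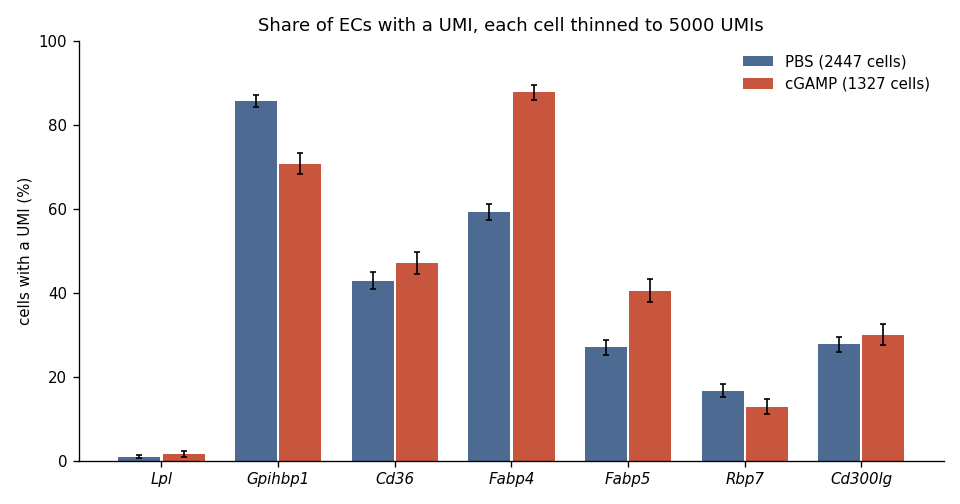
Percentage of ECs with at least 1 UMI of each gene (vertical axis) after thinning to 5000 UMIs per cell, with the PBS library in blue and the cGAMP library in red and exact Clopper-Pearson 95% intervals as bars. Fabp4 and Fabp5 were found in more cGAMP-treated ECs and Gpihbp1 and Rbp7 in fewer.

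A Fabp5 UMI was found in 26.9% (25.2 to 28.7) and 40.5% (37.8 to 43.2) of thinned cells. Gpihbp1 went the other way, with 85.7% (84.2 to 87.1) and 70.7% (68.2 to 73.1), and so did Rbp7, with 16.6% (15.1 to 18.1) and 12.7% (10.99 to 14.6). These 4 genes had intervals that did not overlap between the libraries. Cd36, with 42.8% and 47.0%, Cd300lg, with 27.7% and 29.9%, and Lpl, with 0.82% and 1.51%, had overlapping ones. The share of all genes with intervals apart was not counted, so the count of 4 is not read as particular to these genes. Of 4 transcripts that ECs should lack, Lyz2 had a share of 2.17% with PBS and 6.18% with cGAMP, S100a8 of 0.29% and 1.36% and Hba-a1 of 0.61% and 0.90%. Krt8 had a share of 0.45% with PBS and was in 0 of 1327 cells with cGAMP, which allows a share of up to 0.278%. The Lpl shares over all cells lay below that of Lyz2 and above those of the other 3, and are not read as a difference. In the 2 libraries the summed macrophage markers stood at 21.6 and 47.8 CPM, the 5 neutrophil markers at 0.85 and 17.3 CPM (78 and 1098 UMIs), and the fibroblast or pericyte markers at 13.2 and 4.96 CPM. The sort was set to leave out CD45+ leucocytes. The part of these transcripts in the differences was not tested.

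The other genes of fatty acid handling were taken from 6 lists of 99 genes, of which 68 had at least 5 CPM. None was 2-fold higher with cGAMP and 2 were 2-fold lower, where 3.52% of 9509 genes were past 2-fold in either direction. By any amount 21 were higher and 47 lower, with a median log2 ratio of -0.19 against -0.08 over all genes. With a median below 0, most of the 9509 genes were lower as well. Their exact share was not counted, which limits the counts of each list below. The pair past 2-fold was Vldlr, the very low density lipoprotein receptor, with 6.77 CPM in PBS-treated and 2.64 CPM in cGAMP-treated ECs (log2 ratio -1.36), and Tcf15, with 30.8 and 14.8 CPM (-1.06). Among 10 genes of fatty acid import and activation, 2 were higher and 8 lower. They included Cav1 and Cavin1, which form caveolae, with log2 ratios of -0.85 and -0.68, and Acsl1 and Acsl5, which activate fatty acids, with -0.68 and 0.25. Among 11 genes of lipolysis and lipoprotein receptors, 3 were higher and 8 lower, and Angptl4, an inhibitor of lipoprotein lipase, had 142 and 198 CPM (0.48), Scarb1 221 and 125 CPM (-0.82) and Apoe 95.003 and 56.6 CPM (-0.75).

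Of 15 regulators 6 were higher and 9 lower. Klf2, a factor that responds to flow, had a log2 ratio of 0.61, Foxo1 of -0.70, Rxra, the partner of the PPARs, of -0.51, and the VEGF receptor gene Flt1 of 0.27. Of 11 genes of lipid droplets and lipases 3 were higher, among them Hilpda with 70.9 and 107 CPM (0.59), and 8 lower, among them the lipases Mgll (-0.37) and Pnpla2 (-0.34) and the droplet protein Plin3 (-0.30). Of 17 genes of fatty acid oxidation 5 were higher and 12 lower, and Cpt1a, which brings fatty acids into mitochondria, had a log2 ratio of -0.38, Acadm of -0.37, Acaa2 of -0.35, Hadh of -0.29, Hadha of -0.24 and Acadl of -0.11. Among the genes of glycerol and retinoid handling Dhrs3 had a log2 ratio of 0.47, Rdh10 of 0.24 and Gpd2 of -0.32.

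In the cells led by Slc6a6 and Clic5, 11 of these 68 genes were at least 2-fold higher than in the other cells of both libraries, with 2.40% of 9509 genes, and 3 at least 2-fold lower, with 5.02% of them. The higher ones came from all 6 lists, with 4 regulators, and are named here after their values were seen. Unlike the 7 genes, list genes were kept out of the clustering only where they differed 2-fold between the libraries. Others could help to form this cluster, so their count is a description only. Tcf15 is also on the list of capillary markers. Pparg stood at 39.2 against 12.5 CPM with PBS and 79.5 against 14.2 CPM with cGAMP, Tcf15 at 161 against 29.1 CPM and 113 against 12.6 CPM, and Klf4 at 685 against 147 CPM and 393 against 149 CPM. Klf2, the fourth, stood at 931 against 275 CPM and 948 against 420.2 CPM. Meox2 was not among them, at 188 against 165 CPM and 165 against 143 CPM. The lipase gene Mgll was at 852 against 273 CPM and 676 against 206 CPM, and Lipe, the hormone-sensitive lipase, at 118 against 18.4 CPM and 60.7 against 15.5 CPM. Scarb1, at 540.1 against 217 CPM and 261 against 122 CPM, and Slc27a3, of the fatty acid transport proteins, at 52.2 against 7.21 CPM and 18.8 against 6.63 CPM, belonged to the lists of lipoprotein receptors and of import.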

How the data were processed

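Live tumour ECs were captured with a droplet kit that tags the 3′ end of transcripts (version 3 in the methods, version 2 per the labels). The authors aligned reads to mm10 with Cell Ranger 3.0.0 and processed them with Seurat 3.1.1, per the submitters' processing notes, dropped cells of low quality or other than ECs, and deposited natural log values, ln(1 + x), where x is a gene's UMIs scaled to 10000 in each cell. UMIs were recovered by undoing the logarithm. In both libraries 100% of the nonzero values were then whole to within 0.01.

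Clusters were made in R 4.3.3 by Seurat 5.3.0, with integration anchors, 2500 variable genes, 30 principal components and a Louvain resolution of 0.5, after leaving out the 7 genes and variable genes that differed at least 2-fold between the libraries, which kept 1787. A marker was raised at 2-fold over the other cells with 5 CPM added. A name needed 3 raised markers of a list and the most markers, without a tie, both raised and among the 10 leading genes, a rule set after the clusters were seen, so names need not be those of the study. No doublets were removed.

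CPM were compared without a test, because each condition had 1 library. Ratios have exact conditional and shares exact Clopper-Pearson 95% intervals, from scipy 1.17.1. Thinning to 5000 UMIs dropped 70 cells of the PBS library and 13 of the cGAMP library. The scripts were tested on simulated data. The members and lists were chosen with earlier results of these data known. Besides the 7 genes, the rule named the 4 genes with the largest absolute log2 ratio and the 2 most abundant ones of each list, among genes with at least 5 CPM, the 3 genes most like each member, and the 2 leading genes of each cluster. Genes named for their level in the cluster led by Slc6a6 and Clic5 were chosen after their values were seen. Alternatives covered the scaling, the cells kept, the thinning depth, the clustering and the CPM minimum. Promoter sequences were from RefSeq, where 2 of the 7 genes matched. Figures were drawn with matplotlib 3.10.9. Not every gene of the lists is reported here.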

Additional observations from a re-analysis of the deposited data

Results flagged for a closer look

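Each of the 7 genes had a log2 ratio of cGAMP over PBS that pointed one way in 1 cluster and the other way in another, with counting intervals on opposite sides of 0. Clusters with at least 30 cells per library and 10 UMIs in each library were looked at. The share of all genes that met the same rule was not counted, so the count of 7 is not read as particular to these genes. With 1 library per condition the difference between clusters was not tested. Other clusterings were compared for Fabp4 and Fabp5 in the arterial cells and for Gpihbp1 and Rbp7 in the stalk-like or venous cells. Lpl and Fabp4 were also measured in the larger arterial clusters, where the cells led by Slc6a6 and Clic5 were 13.8% to 23.0%. Lpl there had 12.7 CPM with PBS and 12.4 CPM with cGAMP at resolution 0.3. With other variable genes it had 22.8 and 21.6 CPM or 22.0 and 23.5 CPM, and without integration 22.0 and 31.1 CPM. Fabp4 was higher with cGAMP in each, with 1740 and 3918 CPM at resolution 0.3. The other ratios given here were not compared. For Rbp7 the ratio was 0.92 in the cells led by Slc6a6 and Clic5 and -1.76 in the stalk-like or venous cells, a difference of 2.68. For Fabp5 it was 1.92 in the arterial cells and -0.55 in those led by Igfbp5 and Ctsh, 2.47 apart. Lpl was at 1.19 in the arterial cells, on 12 and 16 UMIs, and at -0.999 in the cells led by Slc6a6 and Clic5, 2.19 apart. The median cell of the latter had 0 Lpl UMIs per 10000 with PBS and 0.34 with cGAMP, so the lower sum was not seen in the typical cell. Fabp4 was at 1.75 in the arterial cells and at -0.19 in the cells led by Slc6a6 and Clic5, 1.94 apart, although the median cell of the latter had more Fabp4 with cGAMP (97.3 UMIs per 10000, against 51.4). Gpihbp1 was at 0.61 in the cells led by Slc6a6 and Clic5 and at -1.20 in the stalk-like or venous cells, 1.81 apart. Cd36 was at 0.27 in the tip-like cells led by Gal and Chga and at -0.74 in the cells led by Slc6a6 and Clic5, 1.01 apart, and Cd300lg at 0.57 in the same tip-like cells and -0.35 in the stalk-like or venous cells, 0.92 apart.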

How the results depend on the processing

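No paired analysis was possible because each condition had 1 library and the result comes from no test. Of 70 single-gene log2 ratios under 10 alternatives, 64 kept their sign. The exceptions were Cd36 with the mean of per-cell CPM (-0.0082) and with equal cluster proportions (-0.11), Fabp5 without cells holding adipocyte or macrophage markers (-0.05), and Lpl without those cells (0.00036), without the 1% of cells with the most of its UMIs (0.80) and after thinning to 5000 UMIs (0.16). Fabp4 ran from 0.47 to 0.84 and Gpihbp1 from -0.38 to -0.19. The median over the 7 genes, 0.05, became 0.12 with median-of-ratios scaling, -0.0082 with per-cell means, -0.11 with equal cluster proportions, 0.00036 without cells holding adipocyte or macrophage markers, 0.35 without the 1% of cells with the most UMIs of each gene and 0.16 after thinning to 5000 UMIs. The number of the 7 genes past 2-fold, 0, became 1 (Rbp7) without the cells led by Slc6a6 and Clic5, chosen after seeing the data, and the number past 1.5-fold was 2. The share of all genes was not counted for either of these alternatives, so neither count is read as particular to the 7 genes. Of the 7 genes, 6 were 2-fold higher in the cluster led by Slc6a6 and Clic5 and 3 in the cluster that held its 118 cells at resolution 0.3, an arterial cluster of 855 cells. The same cells formed their own cluster at resolution 0.8. With other variable genes or without integration at least 97.5% of them lay in a larger arterial cluster, with 4, 4 and 5 genes 2-fold higher. The share of all genes 2-fold higher was 2.40% in the cluster led by Slc6a6 and Clic5 and was not counted in the larger ones. Without integration the ratio of Gpihbp1 in the cluster holding most stalk-like or venous cells was 0.59, the reverse of -1.20. Of the pathway genes 2 were past 2-fold, and 1 with median-of-ratios scaling (Vldlr) or a minimum of 20 CPM (Tcf15), and that scaling gave 24 higher and 44 lower. Where no construction shows it, the cause was not tested. Depth limits Lpl, with 294 and 176 UMIs.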
